A study of Mus musculus with 14 samples.

Results

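*Pi15*, *Lrrc31*, *Tfap2e*, *Syt9*, *Golim4* and *1700012B07Rik* are 6 of the 56414 genes listed for the mouse mammary tumors of this series. They were chosen by their normalized counts in M/D-driven tumors, as genes with strong losses upon exposure to nicotinamide (NAM), so that their values in that comparison are a description and carry no test. Values in AT3 tumors played no part in the choice. All 6 genes were found in the table by symbol, each as a single gene.

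Bulk RNA-seq was performed on 14 tumors, with 1 polyA library per tumor. M/D-driven tumors were induced in female C57Bl/6 mice by a subcutaneous pellet of the progestin medroxyprogesterone acetate (MPA; 50 mg, released over 90 days), which was implanted at 6 to 9 weeks of age, followed by repeated gavage with the carcinogen 7,12-dimethylbenz[a]anthracene (DMBA; 200 µL at 5 mg per mL). AT3 tumors grew from cells of AT3, a transplantable mouse mammary carcinoma line, injected under the skin of C57Bl/6 mice whose age is not given in the labels. In both models, mice were randomized when tumors reached 0.25 cm2, and NAM was given at 0.5% in the drinking water for 10 days. The M/D model comprised 4 untreated tumors and 4 tumors exposed to NAM, and the AT3 model comprised 3 of each. The mice of all 4 groups thus shared the strain, and both M/D groups had received MPA and DMBA. Each M/D-driven tumor is a primary lesion that arose in its host, whereas AT3 tumors are grafts of 1 cell line.

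NAM is a form of vitamin B3 and a precursor of NAD, the redox cofactor that sirtuins and poly(ADP-ribose) polymerases also consume. The 6 genes share no single pathway. *Pi15* encodes a secreted peptidase inhibitor of the CAP superfamily. *Tfap2e* encodes AP-2 epsilon, a member of the AP-2 family of DNA-binding transcription factors that also holds regulators of mammary epithelium. *Syt9* encodes a synaptotagmin, one of the calcium sensors that couple vesicles to membrane fusion in secretory cells. *Golim4* encodes a membrane protein of the Golgi apparatus that cycles through endosomes. *Lrrc31* encodes a leucine-rich repeat protein of epithelia, and *1700012B07Rik* is a RIKEN transcript with no established function. Squamous keratins mark stratified, skin-like epithelium, which mammary tumors can form by squamous differentiation.

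The M/D libraries held 50391585 to 84178009 reads and the AT3 libraries 40936868 to 75527467, after the division of each value by the step that 1 read is worth. NAM-treated M/D-driven tumor 1 stood apart from the others, and the labels place it alone in experiment 2, whereas the 7 other M/D-driven tumors belong to experiment 1. *Epcam*, an adhesion molecule of epithelial cells, had a normalized count of 932 in this tumor, as compared to 16166 to 62247 in the 7 others. The summed count of 10 markers of T and B lymphocytes was 193368 in this tumor and 1951 to 8146 in the others. In bulk tumors, fewer cells of a type and less RNA per cell cannot be told apart. The log2 differences of the 6 genes are therefore given with and without this tumor, and calls among the lists of other genes that were lost or gained without it are named.

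*Tfap2e* had the steepest loss of the 6 genes on the log2 scale. It is listed at chr4:126716003-126736269 on mm10 (GSMG0028362). Its normalized counts were 179, 12.0, 147 and 150 in untreated M/D-driven tumors 1 to 4, and 0, 0, 1.84 and 1.60 in NAM-treated tumors 1 to 4. Untreated tumor 2 was far below the other untreated tumors, yet above every NAM-treated tumor. The mean fell from 121.9 ± 74.7 without to 0.861 ± 0.999 with NAM (SD, n = 4 each), which is a difference of −5.69 in log2(normalized count + 1). These values rest on 565 reads in the untreated and 4 reads in the NAM-treated group. The pooled rate of reads was 125-fold higher in untreated tumors, with an exact 95% interval of 48.6 to 461 that covers counting error only. It leaves out the spread between tumors and the choice of the gene on this contrast, and is no test of the loss.

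*Lrrc31* (chr3:30678574-30699843, GSMG0025276) rested on 169 reads in untreated tumors and 1 read with NAM. Its normalized counts were 20.8, 10.9, 37.5 and 71.6 in untreated tumors 1 to 4. With NAM, 3 tumors were at 0 and tumor 2 had 1.22, which is a single read. A count of 0 allows up to 3 reads, or 0.0439 to 0.0595 RPM (reads scaled to the library's total) across these libraries. The difference was −4.58 in log2(normalized count + 1), and the pooled rate of reads was 149.7-fold higher in untreated tumors, with an exact 95% counting interval of 26.5 to 5948. *Lrrc31* was thus at the detection limit in NAM-treated tumors, and the size of its loss is poorly known. The wide interval covers counting error only. It leaves out the spread between tumors and the choice of the gene on this contrast, and is no test of the loss.

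*1700012B07Rik* (chr11:109787651-109828047, GSMG0007572) had normalized counts of 562, 361, 351 and 85.3 in untreated tumors 1 to 4, and of 14.4, 36.5, 30.4 and 4.01 in NAM-treated tumors 1 to 4. Tumor 4 was the lowest of both groups. The mean fell from 339.9 ± 195.5 to 21.3 ± 14.8 (SD, n = 4 each), a difference of −4.01 in log2(normalized count + 1). *Gm11683*, a predicted gene that lies within its span, had a mean of 59.0 without and 4.87 with NAM. As the strand setting of the counting is not given in the sources used here, reads of these overlapping genes cannot be told apart.

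*Pi15* (chr1:17601900-17630938, GSMG0000068) had an even level among untreated tumors. Its normalized counts were 367, 356, 378 and 305 in untreated tumors 1 to 4, and 13.6, 79.2, 21.2 and 14.4 in NAM-treated tumors 1 to 4. NAM-treated tumor 2 was the highest of its group and still 3.85-fold below the lowest untreated tumor. The mean fell from 351.6 ± 32.4 to 32.1 ± 31.6 (SD, n = 4 each), a difference of −3.80 in log2(normalized count + 1).

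*Syt9* (chr7:107370789-107548655, GSMG0034992) had normalized counts of 588, 337, 336 and 338 in untreated tumors 1 to 4, and of 14.4, 108, 50.6 and 70.6 in NAM-treated tumors 1 to 4. Untreated tumor 1 stood above 3 nearly equal tumors. The mean fell from 399.6 ± 125.5 to 61.0 ± 39.2 (SD, n = 4 each), a difference of −2.96 in log2(normalized count + 1).

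*Golim4* (chr3:75876183-75956949, GSMG0025523) was reduced but not shut down. Its normalized counts were 9547, 8564, 7654 and 7719 in untreated tumors 1 to 4, and 3280, 4234, 5146 and 4362 in NAM-treated tumors 1 to 4. Every NAM-treated tumor was below the untreated range but still well detected, with at least 3477 reads. The mean went from 8371 ± 887 to 4255 ± 765 (SD, n = 4 each), 1.97-fold lower with NAM, and the difference in log2(normalized count + 1) was −0.99. An unnamed gene that overlaps its 5′ end had a mean of 21.1 without and 8.91 with NAM.

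**Figure D1:**
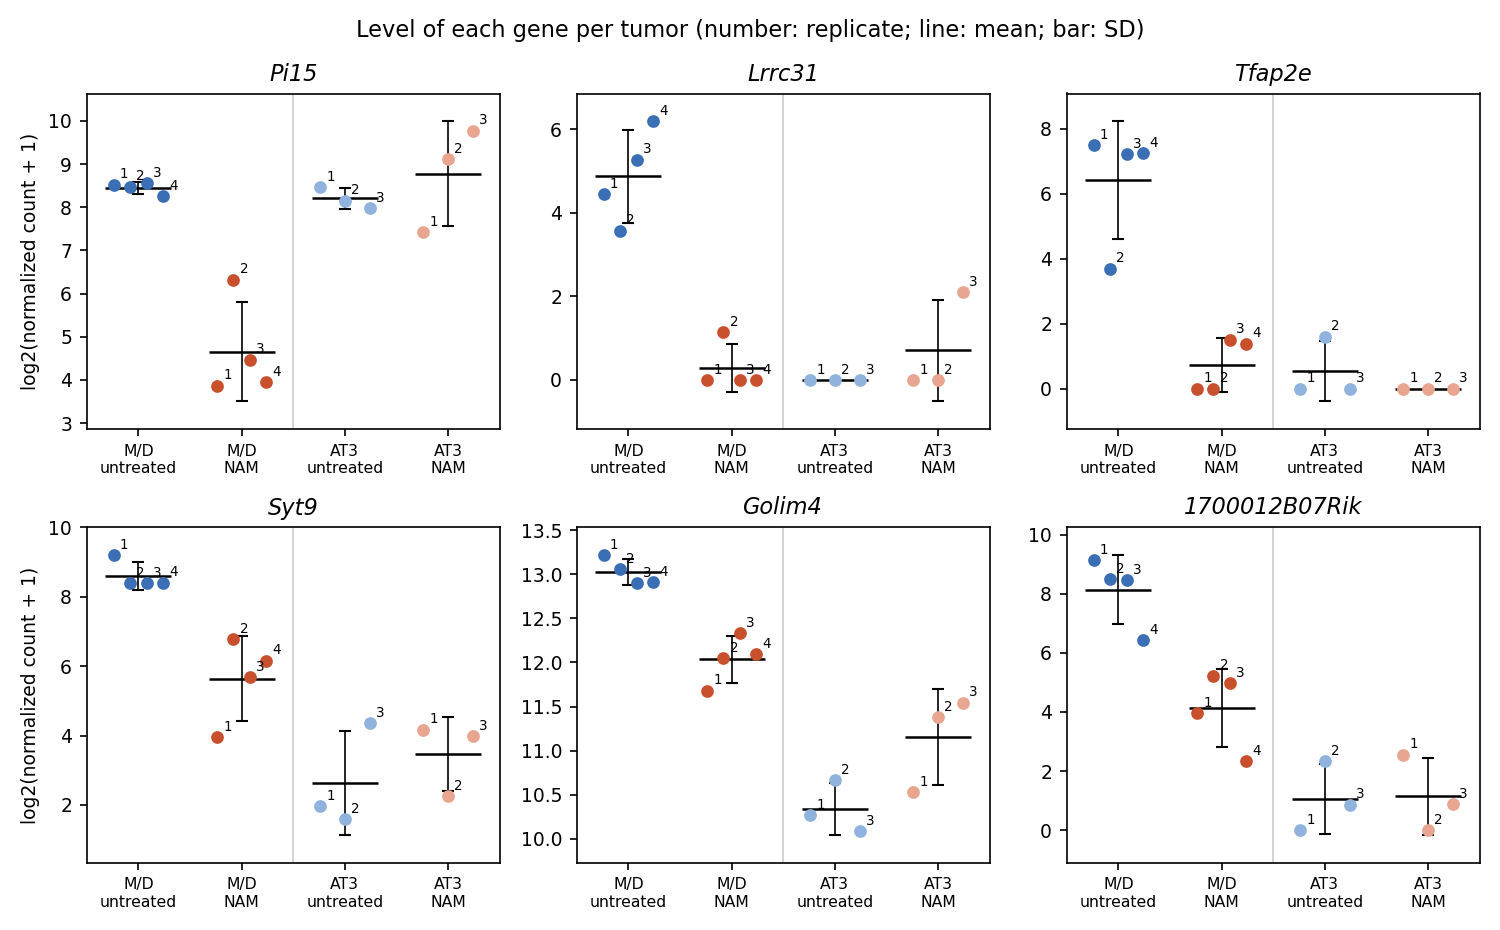
log2(normalized count + 1) of the 6 genes in each of 14 tumors, by model and treatment; points are tumors with their replicate number, lines are group means and bars SD. In M/D-driven tumors all NAM-treated tumors lie below all untreated tumors for each gene, and *Golim4* differs the least; M/D and AT3 values were normalized apart.

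The 6 genes differed in how far the groups stood apart. For all 6, every NAM-treated M/D-driven tumor was below every untreated one, as was the case for 2% of the 21700 genes tested, but the genes were chosen on this contrast and nothing is read from their count. The gap between the lowest untreated and the highest NAM-treated tumor was 8.92-fold for *Lrrc31*, 6.49-fold for *Tfap2e*, 3.10-fold for *Syt9*, 2.33-fold for *1700012B07Rik* and 1.49-fold for *Golim4*. Ranked from the lowest log2 difference over all genes tested, *Tfap2e* was 66, *Lrrc31* 178, *1700012B07Rik* 225, *Pi15* 257, *Syt9* 449 and *Golim4* 2342. When only the 389 named genes with groups that did not overlap were ranked, *Tfap2e* was 2, *Lrrc31* 9, *1700012B07Rik* 11, *Pi15* 13, *Syt9* 41 and *Golim4* 181. The 6 genes are therefore not the 6 with the largest losses by either ranking.

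Genes next to them in the second ranking and not among the 6 included *Sgpp2*, which encodes a phosphatase of sphingosine-1-phosphate, at rank 1 with a log2 difference of −5.69, *Tsga10ip* at rank 3 with −5.53, *Hmga2*, a chromatin gene, at rank 8 with −4.73, and *Synpr*, which encodes the vesicle protein synaptoporin, at rank 10 with −4.19. *En2*, a homeobox gene, was at rank 12 with −3.91 but above a normalized count of 3.22 in untreated tumor 2 only, and *Uroc1*, an enzyme of histidine breakdown, at rank 14 with −3.79. Losses of a similar size were thus present in genes outside the 6.

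Without NAM-treated tumor 1, the log2 difference was −5.45 for *Tfap2e*, −4.48 for *Lrrc31*, −3.96 for *1700012B07Rik*, −3.54 for *Pi15*, −2.39 for *Syt9* and −0.87 for *Golim4*.

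Levels were also set against *Epcam* in the same tumor, an alternative added after the data had been seen. Per 1000 normalized counts of *Epcam*, *Pi15* was at 5.73 to 18.9 in untreated tumors, 14.6 in NAM-treated tumor 1 and 0.721 to 3.49 in the other NAM-treated tumors. *Syt9* was at 5.41 to 21.2 in untreated tumors, 15.5 in NAM-treated tumor 1 and 1.73 to 4.78 in the other NAM-treated tumors. *1700012B07Rik* was at 5.28 to 20.3, 15.5 and 0.214 to 1.61 in the same order. On this scale NAM-treated tumor 1 thus fell within the untreated range for these 3 genes, whereas the other NAM-treated tumors stayed below it.

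For *Lrrc31* and *Tfap2e*, the NAM-treated tumors of experiment 1 lay below the untreated ones relative to *Epcam*. *Lrrc31* was at 0.175 to 4.43 per 1000 *Epcam* counts in untreated tumors and at no more than 0.0537 in NAM-treated tumors 2 to 4. *Tfap2e* was at 0.192 to 9.26 in untreated tumors and at no more than 0.0857 in NAM-treated tumors 2 to 4. NAM-treated tumor 1 had 0 reads of both genes, which with its low *Epcam* allows up to 2.73 per 1000 *Epcam* counts, within the untreated range of each gene. In the other NAM-treated tumors a count of 0 allows up to 0.0941 to 0.161. The tumors with 1 read of *Lrrc31* or 2 reads of *Tfap2e* allow more, so that their distance from the lowest untreated tumor is uncertain. *Golim4* did not keep its difference on this scale. It was at 138 to 477 per 1000 *Epcam* counts in untreated tumors, at 3519 in NAM-treated tumor 1 and at 175 to 233 in the other NAM-treated tumors, so that the groups overlapped with and without tumor 1.

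**Figure D2:**
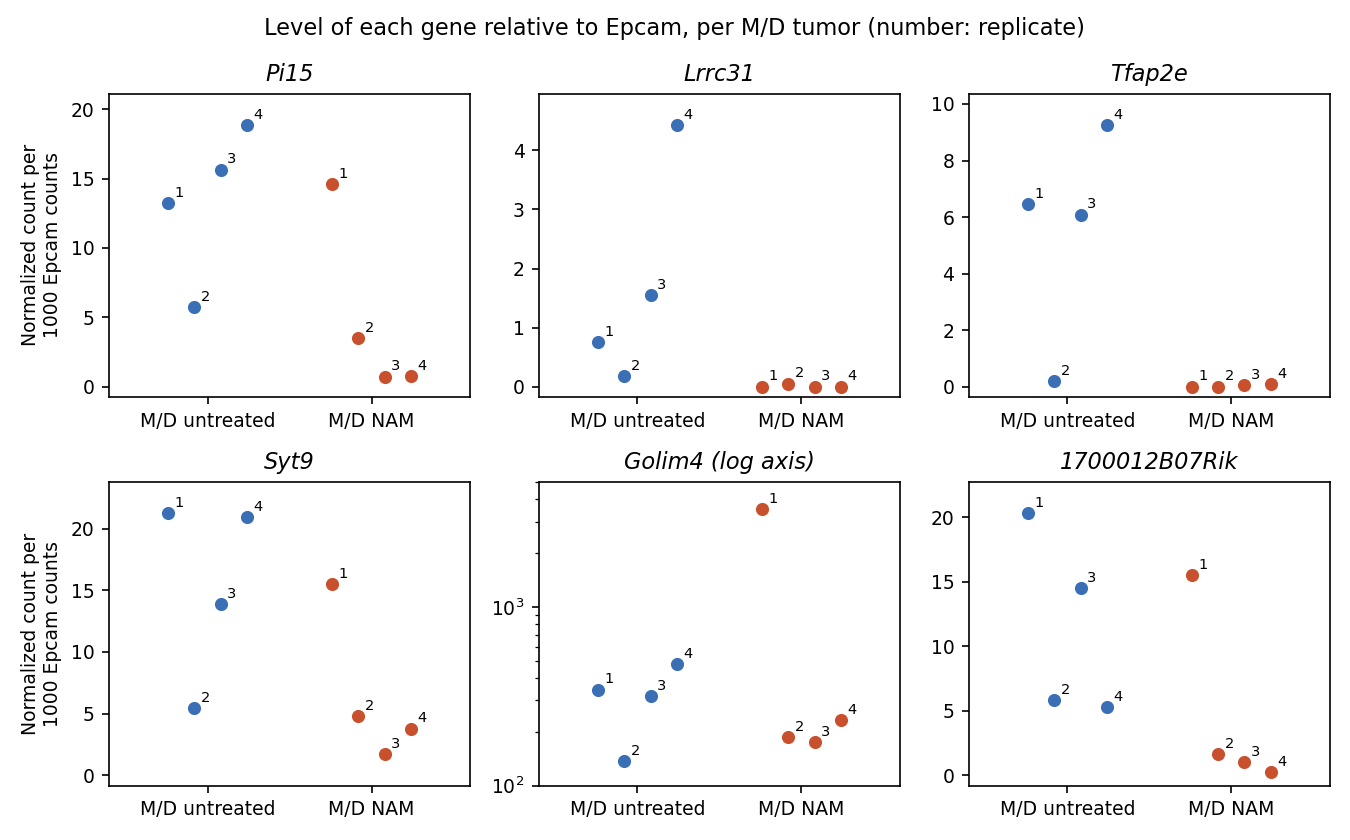
Normalized counts of the 6 genes per 1000 normalized counts of *Epcam* in the 8 M/D-driven tumors, numbered by replicate, with a log axis for *Golim4* only. NAM-treated tumor 1 lies within the untreated range for *Pi15*, *Syt9* and *1700012B07Rik* and at 3519 for *Golim4*; its 0 for *Lrrc31* and *Tfap2e* allows up to 2.73 on this scale.

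Squamous keratins followed another order across tumors. The list held 14 squamous keratins, of which *Krt6a* and *Krt6b* are joined in 1 value in the table, which leaves 13 values. Their sum of normalized counts was 600201, 15423, 1012291 and 2088343 in untreated M/D-driven tumors 1 to 4, and 434, 788371, 23132 and 22656 in NAM-treated tumors 1 to 4. When log2(normalized count + 1) was averaged over *Pi15*, *Lrrc31*, *Tfap2e*, *Syt9*, *Golim4* and *1700012B07Rik*, the mean was 8.67, 7.62, 8.47 and 8.24 in untreated tumors and 3.91, 5.25, 4.83 and 4.32 in NAM-treated tumors. Untreated tumor 2, with rank 7 of 8 in keratins, was thus above all NAM-treated tumors in the 6 genes. Conversely, NAM-treated tumor 2, with rank 3 of 8 in keratins, was below all untreated tumors in the 6 genes. As the 6 genes were chosen on this contrast, their order by treatment was set in advance, and these ranks are no test of a link with squamous keratins.

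Single keratins differed from each other. *Krt10*, a keratin of suprabasal skin layers, had normalized counts of 95007, 79.3, 190149 and 370221 in untreated tumors 1 to 4, and of 149, 2302, 108 and 114 with NAM. *Krt16*, a keratin of activated and hyperproliferative epidermis, was at 15929, 43.5, 153879 and 594577 in untreated tumors and at 0, 282539, 385 and 119 with NAM. Untreated tumor 2 was below every NAM-treated tumor for *Krt10* and below 3 of them for *Krt16*, so that the groups overlapped for both. NAM-treated tumor 2 was above untreated tumors 1 to 3 for *Krt16*, but below untreated tumors 1, 3 and 4 for *Krt10*.

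**Figure D3:**
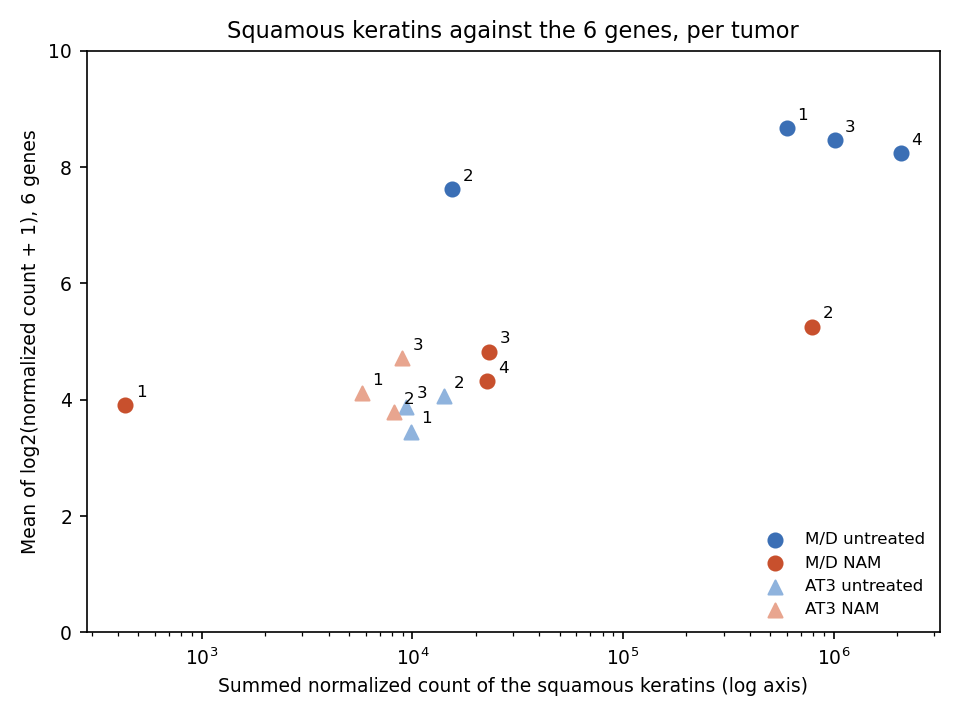
Summed normalized count of the squamous keratins (x, log axis) against the 6-gene mean of log2(normalized count + 1) (y) in 14 tumors, numbered by replicate. Untreated M/D-driven tumor 2 has few squamous keratins (15423) but a high mean (7.62), and NAM-treated tumor 2 has many (788371) but a lower mean (5.25). The 6 genes were chosen as losses with NAM, so that their order by treatment was set in advance.

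Across the whole M/D comparison, 3.19% of genes were lower and 3.03% higher with NAM at the thresholds used (unadjusted p no higher than 0.05 and a change of 1.5-fold or more, in limma). Of the 13 squamous keratin values, 2 fell and 0 rose, namely *Krt1* (log2 difference −9.34, SE 3.17, adjusted p = 0.73) and *Krt10* (−6.72, SE 2.56, adjusted p = 0.73). The log2 differences of all 13 were below 0, with a median of −3.67 as compared to 0.01 over all genes tested. The count of keratins past the thresholds was 7 without NAM-treated tumor 2 and 4 without untreated tumor 2, and 1 when NAM-treated tumor 1 (*Krt1*, with *Krt10* lost), 3 or 4 or untreated tumor 1, 3 or 4 was left out.

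Lists of other squamous genes gave similar counts. Of 22 genes of the cornified envelope and desmosomes, 2 fell, namely *Lor* (−7.40, SE 2.82) and *Flg2* (−8.13, SE 2.57), which encode proteins of the outer skin barrier, and the median of the list was −5.08. Of 8 squamous kallikreins, which are proteases that shed corneocytes, 2 fell, namely *Klk8* (−5.40, SE 1.84) and *Klk11* (−5.36, SE 1.77), with a median of −5.38. The adjusted p was 0.73 for all 4 genes. The lowest log2 differences among named genes outside the 6 belonged to *Krt1*, *Flg* (−8.15), *Flg2*, *Lce1a1* (−7.89) and *Casp14* (−7.79), all of which act in cornification, and the groups overlapped for each of them. Without NAM-treated tumor 1, *Flg2* and both kallikreins still fell, *Lor* did not pass, and the medians of the lists were −3.46 and −4.03.

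**Figure D4:**
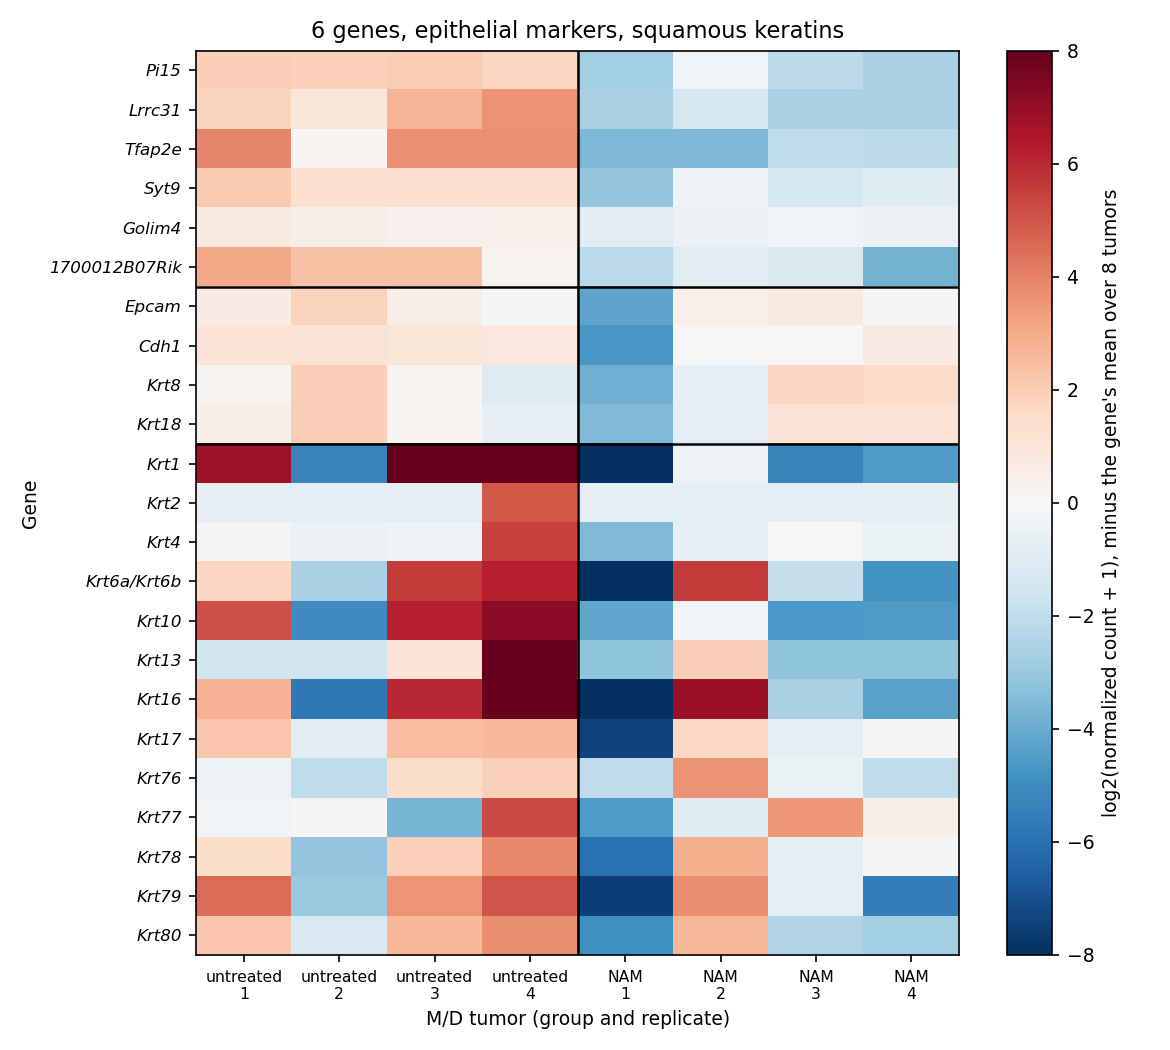
log2(normalized count + 1) minus the mean of each gene over the 8 M/D-driven tumors, for the 6 genes (top), 4 epithelial markers (middle) and squamous keratins (bottom; *Krt6a* and *Krt6b* share 1 row); colors saturate at 8 in either direction. The 6 genes divide the tumors by treatment, which their choice on this contrast set in advance. Squamous keratins are low in untreated tumor 2 and several are high in NAM-treated tumor 2.

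Within the untreated group, single genes differed in how they varied. *Lrrc31* had its highest value in tumor 4, followed by tumors 3, 1 and 2, which was also the order of the summed squamous keratins. *1700012B07Rik* had the opposite extreme, with its lowest value in tumor 4. *Pi15* hardly varied, between 305 and 378. These orders rest on 4 tumors and are given without a test.

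Markers of other cell types were examined in the same M/D-driven tumors. Of 12 epithelial and luminal genes, 0 passed the thresholds, with a median log2 difference of −1.14, which was −0.09 without NAM-treated tumor 1. Their summed count was 93133 to 207463 in untreated tumors, 5112 in NAM-treated tumor 1 and 91829 to 113142 in the other NAM-treated tumors. *Cdh1*, which encodes E-cadherin, was below the untreated range in all NAM-treated tumors (773 to 31298 against 35044 to 43070), and fell at the thresholds without tumor 1 (−0.74, SE 0.21, adjusted p = 0.81). Of 6 adipocyte genes, *Adipoq* (adiponectin) rose (0.85, SE 0.21, adjusted p = 0.73), and the summed count of the list was 22085 to 67134 in untreated and 35111 to 108365 in NAM-treated tumors. Of 6 skeletal muscle genes, *Myh4* (a fast myosin) rose (7.30, SE 2.86, adjusted p = 0.73), with sums of 171 to 25638 and 1089 to 242517. Both calls held without NAM-treated tumor 1. Of 3 basal keratins, 0 passed the thresholds with all tumors, with a median log2 difference of −2.28, and *Krt15* rose at the thresholds without NAM-treated tumor 1. The part of these cell types in the losses of the 6 genes was not tested.

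AT3 tumors, which were not used to choose the genes, addressed whether the losses recurred in another model. *Pi15* and *Golim4* were readily detected, *Syt9* was near the limit, and *Lrrc31*, *Tfap2e* and *1700012B07Rik* were at or near 0 in both groups, below the minimum group mean of 10. Thus 3 of the 6 genes were tested. Neither *Pi15* nor *Golim4*, whose untreated levels left room for a loss, fell at the thresholds, and *Golim4* rose, where 10.9% of 19281 genes were lower and 12.2% higher.

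*Pi15* had normalized counts of 354, 284 and 252 in untreated AT3 tumors 1 to 3, and of 171, 557 and 876 in NAM-treated tumors 1 to 3. The groups overlapped, since NAM-treated tumor 1 was the lowest and the other NAM-treated tumors the highest. The log2 difference was 0.57 (SE 0.52, 95% interval −0.62 to 1.76), with an adjusted p of 0.50 in limma. Without NAM-treated AT3 tumor 1 it was 1.25 (limma, unadjusted p = 0.0027, adjusted p = 0.034), past the thresholds in the higher direction. In that setting 3459 of 19301 genes were higher at the thresholds, and 2498 had an adjusted p of at most 0.05. With all AT3 tumors kept and each corrected for transcript length and GC content, the difference of *Pi15* was 0.24 (SE 0.49, adjusted p = 0.80 in limma). *Pi15* was at a median of 6.21 RPM in untreated M/D-driven tumors and 5.58 RPM in untreated AT3 tumors, and at 0.346 and 12.1 RPM with NAM.

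*Golim4* was at 1229, 1620 and 1087 in untreated AT3 tumors 1 to 3 and at 1475, 2656 and 2986 in NAM-treated tumors 1 to 3. NAM-treated tumor 1 lay within the untreated range. *Golim4* rose at the thresholds, with a log2 difference of 0.81 (SE 0.30, 95% interval 0.12 to 1.5), a raw p of 0.0255 and an adjusted p of 0.17 in limma. The call was lost without untreated tumor 1 (0.77), untreated tumor 3 (0.69), NAM-treated tumor 2 (0.70) or NAM-treated tumor 3 (0.61). In AT3 tumors, the log2 difference with NAM followed transcript length (Spearman correlation of 0.59 across 16429 genes, as compared to −0.04 across 18460 genes in M/D-driven tumors; genes are not independent replicates). After each tumor had been corrected for length and GC content, the difference of *Golim4* was 0.34 (SE 0.19, adjusted p = 0.32), no longer past the thresholds.

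*Syt9* was at 2.90, 2.03 and 19.5 in untreated AT3 tumors and at 17.0, 3.76 and 14.9 in NAM-treated ones, and it passed the minimum group mean through the NAM-treated group (11.9) alone. Its log2 difference was 0.83 (SE 0.96, 95% interval −1.35 to 3.01, adjusted p = 0.60 in limma). At this level in untreated AT3 tumors, a loss of the size seen in M/D-driven tumors could hardly have been measured. The intervals of both *Pi15* and *Syt9* span changes of either sign.

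Of the remaining genes, *Lrrc31* had 0 reads in 5 AT3 tumors and 4 reads in NAM-treated tumor 3. *Tfap2e* had 2 reads in untreated tumor 2 and 0 in the 5 others. *1700012B07Rik* had 0 to 4 reads per tumor. A count of 0 allows 0.0397 to 0.0733 RPM in these libraries. No loss could be measured where the untreated level was at this limit.

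Squamous keratins were low in AT3 tumors, with sums of 9323 to 14066 in untreated and 5736 to 8921 in NAM-treated tumors. Of 8 tested, *Krt16* (−0.83, SE 0.31, adjusted p = 0.17) and *Krt17* (−0.65, SE 0.21, adjusted p = 0.17) fell at the thresholds and 0 rose. Both calls were lost without NAM-treated tumor 1, and also after the correction for length and GC content. *Epcam* was between 18832 and 27578 in all 6 AT3 tumors. NAM-treated tumor 1 had the fewest squamous keratins and the lowest *Pi15*. However, NAM-treated tumors 2 and 3 had the highest *Pi15* (557 and 876), with fewer squamous keratins (8152 and 8921) than any untreated tumor. A link between the 2 was not tested.

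Other members of the gene families were examined next. Of the AP-2 family, 3 further genes were tested in M/D-driven tumors and 0 passed the thresholds. The log2 differences were −1.73 (SE 1.11) for *Tfap2a*, −1.18 (SE 0.91) for *Tfap2b* and −1.35 (SE 1.12) for *Tfap2c*, and all 3 genes had their lowest value (57 to 121) in NAM-treated tumor 1. Without this tumor the differences were −0.47 (SE 0.36), −0.15 (SE 0.29) and −0.05 (SE 0.25). In AT3 tumors, *Tfap2a* (0.80, SE 0.30) and *Tfap2b* (0.79, SE 0.33) rose at the thresholds, with adjusted p values of 0.18 and 0.20, though their groups overlapped. After the correction for length and GC content, *Tfap2a* alone passed.

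Of the CAP superfamily, 0 of 7 genes tested besides *Pi15* passed the thresholds in M/D-driven tumors. *Crispld1*, the gene next to *Pi15* and of the same family, had a log2 difference of 0.11 (SE 1.16). In AT3 tumors, *Crispld2*, which encodes a secreted protein of this family, rose (1.07, SE 0.23, adjusted p = 0.17).

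Of 14 synaptotagmins tested besides *Syt9* in M/D-driven tumors, 1 fell, *Syt2* (−2.23, SE 0.95, adjusted p = 0.73), a calcium sensor of fast synapses, with overlapping groups, a call that was lost without NAM-treated tumor 1, where *Syt17* rose instead. Of 17 synaptotagmin-like and exocytosis genes, 0 passed the thresholds, and *Sytl2*, an effector of Rab27 in vesicle docking, was above the untreated range in every NAM-treated tumor (199 to 275 against 136 to 195). In AT3 tumors, *Syt8* (−1.86, SE 0.35), *Rab27b* (−1.02, SE 0.25) and *Vamp8* (−1.20, SE 0.33) fell and *Syt15* (1.88, SE 0.63) rose, each with an adjusted p of 0.17.

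Of 17 genes of Golgi membranes and matrix besides *Golim4*, 15 had a log2 difference below 0 in M/D-driven tumors (median −0.24) and 15 had one above 0 in AT3 tumors (median 0.54). The 2 models differed in their background as well, with medians of 0.01 and −0.05 over all genes tested, and the difference between models was not tested. In M/D-driven tumors 1 fell, *Sort1* (−0.93, SE 0.30, adjusted p = 0.73), which encodes the sorting receptor sortilin, at 3687 to 5756 in untreated and 1315 to 3044 in NAM-treated tumors, a call that held without NAM-treated tumor 1. *Gorasp1* (391 to 1075 against 1111 to 1298) and *Atp2c1* (877 to 1260 against 1286 to 1577), which encode a stacking protein and a calcium and manganese pump of the Golgi, were below the untreated range in every NAM-treated tumor without passing the thresholds. In AT3 tumors 7 rose, among them *Sort1* (1.22, SE 0.32) and *Furin* (1.29, SE 0.28), a protease that cleaves precursors in the Golgi, both with an adjusted p of 0.17, against 12.2% of all genes higher. After the correction for length and GC content, 3 rose and 1 fell, and neither *Sort1* nor *Furin* passed.

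The genes on either side of the 6 on their chromosomes were measured in the same M/D-driven tumors. Of 24 neighbours tested, 5 fell and 0 rose at the thresholds, 12 had a log2 difference below 0, and 3 had groups with every NAM-treated tumor below, against 3.19% of all genes lower and 2% with such groups. One of these genes, *Gm11683*, overlaps *1700012B07Rik* and may share reads with it, and 4 of the 23 others fell. Groups did not overlap for *Ppfibp2*, nor for *Sec62*, which did not pass. Without NAM-treated tumor 1, *Fnip2* did not pass and the other calls held. *Psmb2* and *Ncdn*, which flank *Tfap2e* at 6.29 and 7.48 kb, had log2 differences of −0.18 (SE 0.22) and −0.06 (SE 0.22). *Ppfibp2*, 46.4 kb from *Syt9*, fell (−1.66, SE 0.51, adjusted p = 0.73) without overlap, and encodes a liprin, a scaffold of cell contacts. *Gpr160*, an orphan receptor gene 156 kb from *Lrrc31*, fell as well (−1.53, SE 0.40, adjusted p = 0.73), as did *Fam20a* (−1.84, SE 0.64), *Fnip2* (−0.61, SE 0.26) and the overlapping *Gm11683* (−3.22, SE 0.84), each at the same adjusted p. *Fam20a* lies 65.4 kb from *1700012B07Rik*, but *Fnip2* lies 3499 kb from *Golim4*, so that the nearest tested genes were not always close.

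Over the 8 M/D-driven tumors, named genes with the profile most like a given gene were found by the Pearson correlation of log2(normalized count + 1), which mostly reflects that treatment separates the tumors. For the mean of the 6 genes, these were *Ttl* (0.97), which encodes tubulin tyrosine ligase, *Clcn3* (0.96), a chloride transporter gene, and *Fam180a* (0.95). *Pi15* was most like *Smyd3* (0.98), which encodes a lysine methyltransferase, followed by *Fdxacb1* (0.97) and *Hmga2* (0.96), a chromatin gene. *Tfap2e* was most like *Nr4a2* (0.98), an immediate-early nuclear receptor gene, at 395 to 4503 in untreated and 105 to 308 in NAM-treated tumors. *Syt9* was most like *Scpep1* (0.98), *Golim4* like *Synpr* (0.95) and *1700012B07Rik* like *Gm11683* (0.96), with which it overlaps. Between pairs of the 6 genes, the correlation was 0.77 to 0.94, but their choice on the same contrast sets a high value in advance.

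A RefSeq promoter was found for 5 of the 6 genes, and the 250 bases before the gene start were searched on both strands for 4 motifs. The motifs were the AP-2 motif GCCNNNGGC, which reads the same on both strands, the half-site TGTTCT of the progesterone and glucocorticoid receptors, the core GCGTG of the aryl hydrocarbon receptor to which polycyclic hydrocarbons bind, and TATAAA. They were held by 13.7%, 16.1%, 28.2% and 12.4% of 32851 windows of this length. The 3 windows with AP-2 motifs or receptor half-sites are printed by gene on GRCm38.p6 (RefSeq), read 5′ to 3′ on the strand of the gene, with these motifs in capitals.
1700012B07Rik, chr11:109828047-109828296, minus strand: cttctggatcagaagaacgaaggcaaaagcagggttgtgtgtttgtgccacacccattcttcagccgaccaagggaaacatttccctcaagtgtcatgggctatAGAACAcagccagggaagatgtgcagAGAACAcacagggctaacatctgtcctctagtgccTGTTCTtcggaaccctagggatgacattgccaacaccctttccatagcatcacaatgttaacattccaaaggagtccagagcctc
Syt9, chr7:107370540-107370789, plus strand: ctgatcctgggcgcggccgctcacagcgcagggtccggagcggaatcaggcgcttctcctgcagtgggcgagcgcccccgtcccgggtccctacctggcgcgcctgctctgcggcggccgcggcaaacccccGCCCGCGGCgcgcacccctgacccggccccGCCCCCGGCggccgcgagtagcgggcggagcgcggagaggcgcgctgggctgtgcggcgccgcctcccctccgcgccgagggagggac
Golim4, chr3:75956950-75957199, minus strand: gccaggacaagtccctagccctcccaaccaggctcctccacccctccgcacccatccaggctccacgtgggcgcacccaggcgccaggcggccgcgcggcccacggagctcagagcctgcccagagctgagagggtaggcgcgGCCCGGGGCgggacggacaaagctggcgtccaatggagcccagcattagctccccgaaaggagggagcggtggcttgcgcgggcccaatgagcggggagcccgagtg

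The window of *1700012B07Rik* held 3 receptor half-sites, of which 2 (at −146 and −120 relative to the gene start) were on the opposite strand and 1 (at −85) on the given strand. The window of *Syt9* held the AP-2 motif at −118 and −88, and that of *Golim4* held it at −107. That of *Tfap2e* held the GCGTG core once, at −100 on the opposite strand, whereas the window of *Lrrc31* held none of the 4 motifs. GC content ranged from 49.2% to 80.4%, and the windows with the AP-2 motif were at 80.4% (*Syt9*) and 72% (*Golim4*). The shares over all windows were not split by GC content. For all but *Tfap2e*, the end of the window also occurs in an annotated transcript, so that it may not be wholly upstream of the transcript. These matches describe letters in a window and not bound sites.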

How the data were processed

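Bulk RNA-seq values of 14 tumors were analysed (4 untreated and 4 NAM-treated M/D, 3 untreated and 3 NAM-treated AT3), grouped by the sample labels. The authors sequenced TruSeq mRNA libraries, mapped reads with STAR 2.4.0 on mm10, counted them per gene and scaled each tumor by its size factor from DESeq2. What they deposited is thus a normalized signal. All values (100%) were within 0.01 of a whole multiple of 1 step per tumor, so that whole reads were recovered. Of 56414 genes, 19524 were at 0 in all tumors and 30657 had no symbol. 0 columns were left unmapped.

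As these are not raw counts, limma 3.58.1 (R 4.3.3) with a mean-variance trend was the main test, on log2(normalized count + 1), within each model, two-sided, with a minimum mean of 10 in either group. A pseudocount understates the change of low genes. Genes passed when p before adjustment was no higher than 0.05 and the change was 1.5-fold or more, and Benjamini-Hochberg adjusted p values over all genes tested are given beside them. At an adjusted p of at most 0.05, 1 gene passed in M/D and 1 in AT3. The labels do not say whether tumors came from separate mice, so that p values measure the spread between these tumors.

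The members and gene lists were chosen with earlier results of these data known. Named genes were the 6 members, list genes past the thresholds in either model or with M/D groups that do not overlap, the 5 other named genes with the lowest M/D difference, the 3 most alike per gene, and the 2 nearest tested named genes on each side. The genes most like *Lrrc31* are not reported here. Genes next to the members in the ranking of genes with groups apart were added after their values were seen.

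The alternatives comprised pseudocounts of 0.5 and 5, no filter or a minimum of 50, TMM or upper quartile rescaling, the replicate number as a block, edgeR 4.0.16 and DESeq2 1.42.0 on recovered reads, the ratio of means, each tumor left out, and, added after the data were seen, values relative to *Epcam* and a correction of each tumor for transcript length and GC content (spline with 4 degrees of freedom). Lengths came from GENCODE transcripts on GRCm38, which covered 85.1% (M/D) and 85.2% (AT3) of genes. The tests were also run on simulated counts with known changes, as a check of the code only. The spread of the simulated counts was fixed and not taken from these tumors, so that it does not show how the tests perform on them. Tables and plots used Python 3.11.15, pandas 2.3.3, numpy 2.4.6 and matplotlib 3.10.9.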

Additional observations from a re-analysis of the deposited data

Results flagged for a closer look

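In M/D-driven tumors, 16 sets of 4 tumors were checked for a tumor far from the 3 others by Dixon's test on untransformed values. Its cutoff is passed by chance in about 1 in 20 sets only if values are normally distributed. That was not tested here, so that the rate of chance flags is not known. NAM-treated tumor 2 was above the rest of its group for *Pi15* (normalized count of 79.2), for *Lrrc31* (1.22, a single read) and for the summed squamous keratins (788371). For *Lrrc31* the 3 others had no reads, so that a single read passes by construction. Untreated tumor 1 was above its group for *Syt9* (588). These flags are given as a description only.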

How the results depend on the processing

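The median log2 difference of the 6 genes in M/D-driven tumors was −3.91, ranged from −4.37 to −3.49 with 1 tumor left out, and was −2.44 relative to *Epcam*, where *Golim4* reversed to 0.48. On that scale without NAM-treated tumor 1, the median was −3.44 and *Golim4* was at −0.56. Genes past the thresholds among the 3 members tested in AT3 tumors were 1, 0 to 2 with 1 tumor left out, and 0 with the trend with length and GC removed. Among squamous keratins in M/D-driven tumors, 2 passed, 4 did with edgeR and 1 to 7 with 1 tumor left out; in AT3 tumors, 2 passed, 0 to 3 with 1 tumor left out and 0 with the trend removed. Among the families in M/D-driven tumors, 2 passed, 1 with a pseudocount of 5, 1 with a minimum of 50, 4 with DESeq2, 1 with the trend removed and 1 to 8 with 1 tumor left out; in AT3 tumors, 14 passed and 7 to 20 did with 1 tumor left out.

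Same-numbered tumors correlated at −0.44 to 0.11 in M/D and −0.16 to 0.26 in AT3, and the labels describe no pairing by number. Untreated and NAM-treated tumors with different numbers correlated at −0.22 to 0.39 in M/D and −0.32 to 0.28 in AT3. Whether same-numbered tumors share more than a number was not tested. With the replicate number as a block, 1 squamous keratin passed in M/D-driven tumors, and genes at an adjusted p of at most 0.05 went from 1 to 0 in M/D and from 1 to 1296 in AT3.

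Over all genes, those lower in M/D-driven tumors were 692 (351 to 1511 over the alternatives) and those higher 658 (312 to 1287). After upper quartile rescaling, 885 were higher and 547 lower, and the median of all genes moved to 0.11. DESeq2 called 179 genes at an adjusted p of at most 0.05 in M/D and 1919 in AT3. In AT3, genes higher were 2358 (904 to 3459) and lower 2100 (714 to 3310). The log2 difference of *Lrrc31* in M/D-driven tumors depended on the pseudocount and tool, from −2.69 with a pseudocount of 5 to −6.97 with DESeq2. Depth limits *Lrrc31* and *Tfap2e*, which had 1 and 4 reads in the NAM-treated group.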

Other observations

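Among the 389 named genes whose NAM-treated M/D-driven tumors were all below the untreated ones, some outside the 6 had losses as large, and those given here were picked after their values had been seen. *Ush1c*, which encodes the scaffold harmonin of microvilli and hair bundles, had normalized counts of 294, 9.78, 61.6 and 350 in untreated tumors 1 to 4, and of at most 2.44 with NAM. *Hmga2*, a chromatin gene of embryonic tissue, was at 468, 346, 203 and 246 in untreated tumors and at 1.70, 53.6, 25.8 and 3.21 in NAM-treated tumors.

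In other genes 1 untreated tumor carried most of the level. *Agr2*, which encodes a disulfide isomerase of mucus-secreting cells, was at 9378 in untreated tumor 4 and at 19.6 to 92.4 in the other untreated tumors, as compared to 0 to 16.6 with NAM. *En2* was at 1583 in untreated tumor 2, at 1.5 to 3.22 in the other untreated tumors and at 0 in the 4 NAM-treated tumors. These losses are given as values, with no test.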
